A study of Mus musculus with 2 samples.

Results

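The genes described here are the sine oculis homeobox genes Six2, Six3, Six4, Six5 and Six6 and the eyes absent genes Eya1, Eya2, Eya3 and Eya4. They were taken by symbol from the feature lists of both libraries, and all 9 of these symbols were found once among the 32285 genes listed. The study compared mouse embryos at embryonic day 9.5 with and without Usb1, the nuclease that matures the 3′ end of U6 snRNA, a core RNA of the spliceosome. It asked at single-cell resolution whether loss of Usb1 leads to defects in particular cell types. One whole-embryo library was wild-type at the Usb1 locus and the other came from a germline knockout (Usb1-null). The sources used here do not give the number of embryos per library, and with 1 library per genotype the variation between embryos was not measured.

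Sine oculis homeobox proteins bind DNA through a homeodomain, and Eya proteins are their co-activators, which lack a DNA-binding domain of their own and carry a tyrosine phosphatase domain. Together with Pax and Dach factors they form a network first known from the fly eye, where sine oculis and eyes absent are the founding members. In the mouse embryo this network is used in the eye, the ear and other cranial placodes, the pharyngeal arches, the somites and the kidney.

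The wild-type library held 15161 cells after filtering, with a median of 1243 transcript molecules (unique molecular identifiers, UMIs) per cell, and the Usb1-null library held 13018 cells with a median of 2299.5. The Usb1-null cells were thus 1.85 times as deep, and all levels below are given as CPM, the UMIs of a gene per 1000000 UMIs of the same library or cluster. Shares of cells were also computed after thinning each cell to 800 UMIs, which left 12472 and 12714 cells. The intervals given are exact 95% intervals and cover counting error only, and no test of the genotype was possible. The libraries also differed in sex-linked transcripts, with 53276 UMIs of Xist in the wild-type and 26 in the Usb1-null library, so sex and genotype cannot be told apart. The study also reports that Usb1-null embryos of this day were markedly smaller than wild-type ones. A difference in growth therefore cannot be told apart from genotype either. Usb1 itself had 68 and 47 UMIs, 3.13 and 1.41 CPM, a count taken at the 3′ end of a gene whose first exons were removed, so it is no check of the label. In all, 61 barcodes occurred in both libraries.

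The cells were partitioned into 29 clusters without the use of any of these genes, and 25 of these held at least 100 cells in each library. Clusters carry the suffix "-like" and were named from marker lists. A few names are loose. The sclerotome-like A cluster also raised 4 of 8 markers of dermomyotome and myotome, the early neuron-like cluster raised all 7 markers of placodal neuroblasts beside all 9 of its own, and clusters 2 and 7 stayed unnamed, the first with at most 3 of 8 markers of any list raised. The sclerotome-like B cluster raised only 4 of 8 sclerotome markers, Pax9, Foxc2, Twist1 and Pdgfra, just enough for its name. Its leading genes included 0 markers of that list, so levels given for this cluster rest on a loose name.

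At least 1 UMI of any of these genes was found in 49.3% of the cells of the wild-type library and 66.7% of those of the Usb1-null library. After thinning the shares were 36.8% and 37.1%, so the gap between the libraries was no longer present at equal depth. Eya genes accounted for most of this, with a thinned share of 34.5% and 35.1%, against 3.71% and 3.19% for Six2 to Six6 together. In primitive erythroid-like cells, taken as a guide to free RNA at a median depth of 841.5 and 1725.5 UMIs, the thinned shares were 25.8% and 26.9% for any member and 1.5% and 1.10% for Six2 to Six6.

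**Figure D1:**
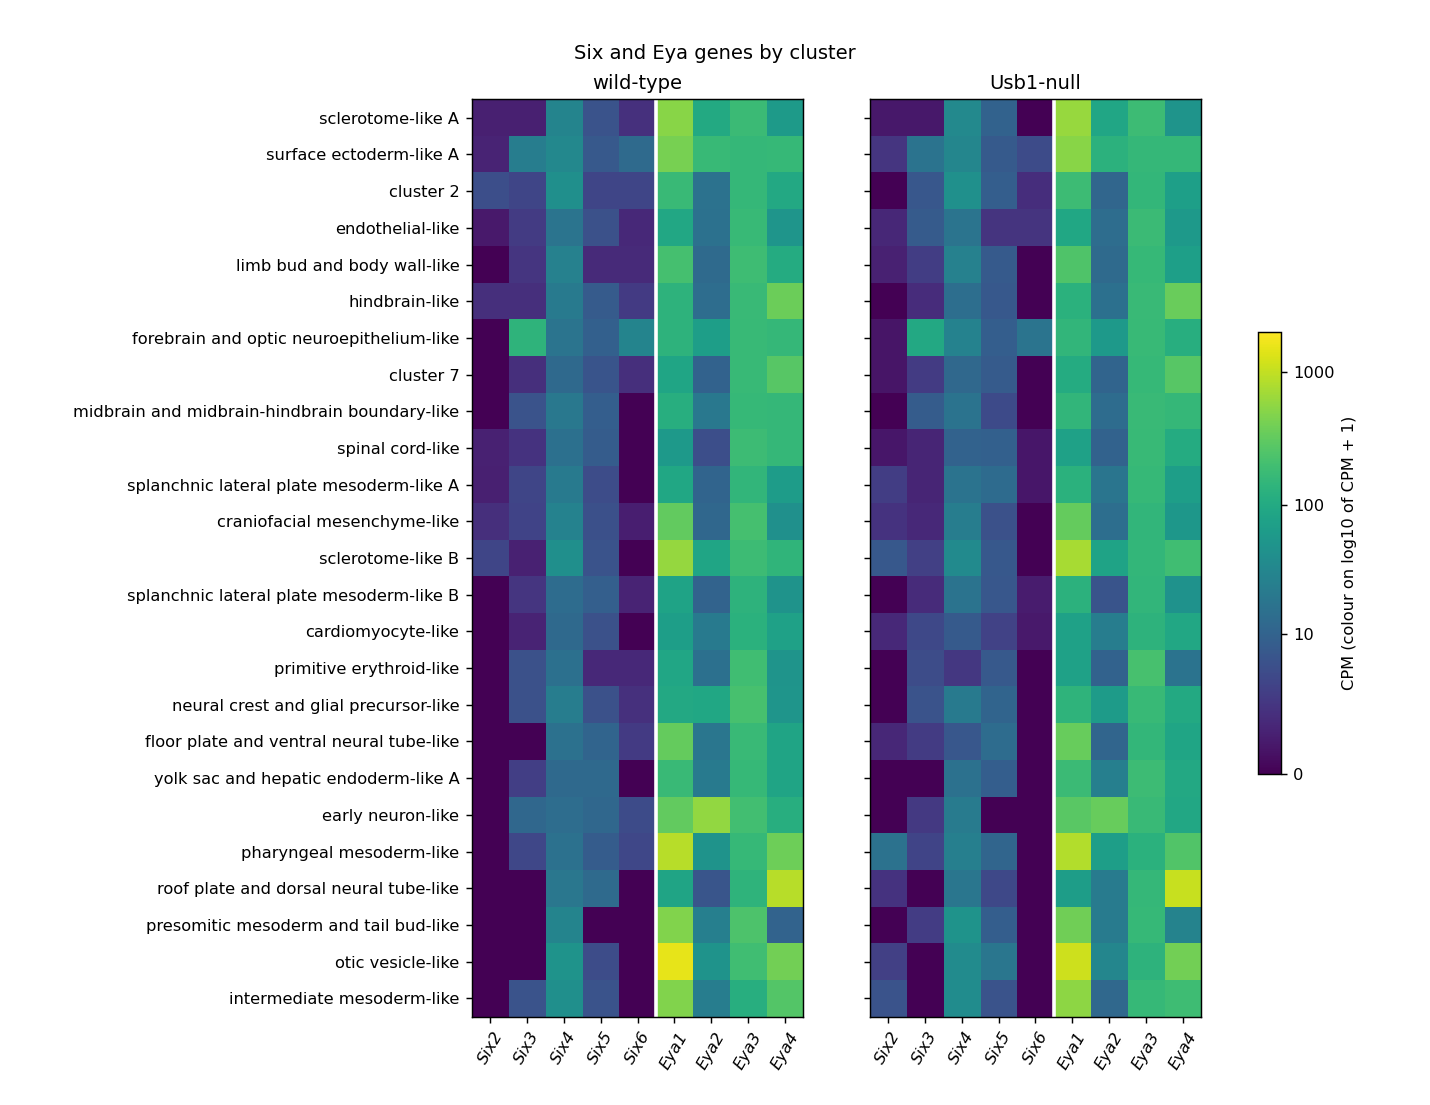
Level of each gene (columns) in each cluster of at least 100 cells per library (rows), in CPM, with wild-type left and Usb1-null right and colour on a log scale. Six3 and Six6 stand out in the forebrain and optic neuroepithelium-like row, Eya1 in the otic vesicle-like row, Eya2 in the early neuron-like row and Eya4 in the roof plate-like row, whereas the Eya3 column is nearly even.

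Six3 and Six6, which are needed for the anterior brain and the eye, had the same leading cluster. In forebrain and optic neuroepithelium-like cells, Six3 reached 139 CPM (119 to 161) in the wild-type library and 97.4 (83.7 to 113) in its Usb1-null counterpart, and the next cluster, surface ectoderm-like A, held 24.3 and 17.1 CPM. The intervals of these neighbours did not overlap in either library. A Six3 UMI was found in 16% and 21.2% of forebrain cells, or 10.9% and 7.25% after thinning, against 0.300% and 0% of thinned erythroid-like cells. Of all Six3 UMIs, 65.3% and 56.7% lay in the forebrain cluster.

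Forebrain cells held Six6 at 29.5 CPM (20.9 to 40.5) in wild-type, on 38 UMIs, and at 17.8 (12.2 to 24.9) in Usb1-null, on 33 UMIs. Surface ectoderm-like A again came next, at 13.0 and 4.74 CPM, and here too the neighbours did not overlap. Of the 25 clusters, 10 in wild-type and 17 in Usb1-null had no UMI of Six6.

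Across the 25 clusters the log levels of Six3 and Six6 were correlated at r = 0.87 (wild-type) and 0.91 (Usb1-null), a description over clusters that share a library and, for the most part, near-zero levels. They were also found in the same cells. Six3 and Six6 were detected together in 21 wild-type cells, where 6.55 were expected had they been detected independently within each cluster and depth class, a ratio of 3.21 (1.98 to 4.90). In Usb1-null cells the pair was seen in 17 cells against 7.52 expected, a ratio of 2.26 (1.32 to 3.62). Within the forebrain cluster alone, 11.6% of wild-type cells with Six3 also had Six6, against 2.61% of those without it. The corresponding Usb1-null shares were 8.33% and 2.80%, and the ratio of observed to expected cells there was 2.71 (1.55 to 4.40) for wild-type and 1.84 (0.952 to 3.22) for Usb1-null.

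Six3 and Six6 are also the most alike of the homeobox members in sequence. Their coding sequences matched at 77.0% of aligned bases, gaps left out, within a range of 64.0% to 77.0% over the 10 pairs of Six2 to Six6. They lie on different chromosomes. Six3 (ENSMUSG00000038805) spans chr17:85613608-85629302 on the plus strand and has Six2 54.974 kb downstream of it on the opposite strand. Six6 (ENSMUSG00000021099) spans chr12:72939892-72944899 on the plus strand, and Six4 lies 154.709 kb from it on the opposite strand (GRCm38, GENCODE M21). Neighbours on the chromosome were unlike in level by cluster, with r = -0.08 (wild-type) and -0.13 (Usb1-null) for Six2 with Six3 and -0.05 and 0.16 for Six4 with Six6.

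The promoter windows of Six3, Six6 and Six4 are printed because Six3 and Six6 share a territory and because Six6 and Six4 hold a match to the MEF3 element, the best known binding site of sine oculis homeobox proteins. Each runs from 250 bases before to 50 bases after the RefSeq transcript start, 5′ to 3′ on the gene's strand (RefSeq, GRCm38.p6). Capitals mark MEF3 matches (TCAGGTT or, on the other strand, AACCTGA) and CCAAT boxes (CCAAT or ATTGG). These matches do not overlap each other. Six3 is at chr17:85620584-85620883 (plus), Six6 at chr12:72939632-72939931 (plus) and the window of Six4 with the match at chr12:73113196-73113495 (minus).
Six3: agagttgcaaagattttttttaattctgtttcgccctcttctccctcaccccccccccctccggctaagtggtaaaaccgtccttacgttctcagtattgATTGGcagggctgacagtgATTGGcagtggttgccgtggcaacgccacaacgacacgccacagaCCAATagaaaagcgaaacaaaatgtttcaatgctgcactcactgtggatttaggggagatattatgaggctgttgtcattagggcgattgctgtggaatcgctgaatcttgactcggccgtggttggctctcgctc
Six6: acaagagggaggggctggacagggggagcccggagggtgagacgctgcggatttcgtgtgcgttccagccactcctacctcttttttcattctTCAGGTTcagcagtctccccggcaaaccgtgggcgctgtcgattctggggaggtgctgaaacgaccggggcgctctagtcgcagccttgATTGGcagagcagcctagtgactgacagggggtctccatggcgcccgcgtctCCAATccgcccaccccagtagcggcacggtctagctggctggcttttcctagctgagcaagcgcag
Six4: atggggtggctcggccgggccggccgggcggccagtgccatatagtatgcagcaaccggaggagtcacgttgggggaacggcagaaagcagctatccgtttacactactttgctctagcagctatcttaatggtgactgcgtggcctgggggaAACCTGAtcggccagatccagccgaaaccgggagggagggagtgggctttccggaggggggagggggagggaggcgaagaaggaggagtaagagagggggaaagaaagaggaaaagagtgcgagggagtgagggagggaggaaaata
The MEF3 match of Six6 begins 157 bases before the start and that of Six4 97 bases before it, on the other strand. The motif was found in 4.07% of all 32851 promoter windows, and CCAAT in either direction in 37.4%. Six3 held 3 CCAAT boxes and no MEF3 match, and Six6 held 2. The longest run the Six3 and Six6 windows shared was 11 bases, ttgATTGGcag, which surrounds a CCAAT box and occurs in 12 of all windows (0.0365%). That run was picked from these 2 windows, so its share of all windows is not a measure of their likeness. These matches describe letters only. In all, 7 of the 9 genes had a window, and Eya1 and Eya2 had none.

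Both genes are overlapped by a gene on the opposite strand. Six3os1 overlaps Six3 and had 405 UMIs in the wild-type and 552 in the Usb1-null library, and 4930447C04Rik overlaps Six6 and had 1178 UMIs over both. The sources used here do not say whether the counting used strand, so reads of a gene and of its opposite partner cannot be told apart. Six3os1 was at 203 and 196 CPM in the forebrain cluster, and of the cells with Six3, 35.6% in wild-type and 36.9% in Usb1-null also had Six3os1, against 1.53% and 2.07% of cells without Six3.

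Six4, a member used in somitic muscle, was widespread at low level. It was at 23.7 and 22.8 CPM in the whole library and ranged from 12.4 to 48.9 CPM over the 25 wild-type clusters and from 2.45 to 48.7 CPM over the Usb1-null ones. In wild-type cells it was highest in otic vesicle-like cells at 48.9 CPM (23.4 to 89.9), followed by sclerotome-like B at 43.7 CPM, cluster 2 at 42.7 CPM and intermediate mesoderm-like cells at 42.7 CPM. In Usb1-null cells presomitic mesoderm and tail bud-like cells led at 48.7 CPM (28.4 to 77.9), followed by cluster 2 at 44.0 CPM and intermediate mesoderm-like cells at 39.6 CPM. None of these neighbours differed beyond its interval. Of all pairs of one homeobox and one Eya gene, Six4 and Eya1 were the most correlated across clusters, at r = 0.63 and 0.66.

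Six5, which lies next to the myotonic dystrophy gene Dmpk, was at 6.49 and 7.61 CPM in the whole library and had at least 1 UMI in 24 of 25 clusters of each library. Its order of clusters differed between the libraries. The highest wild-type level was 12.9 CPM in roof plate-like cells on 4 UMIs, and the highest Usb1-null level was 19 CPM in otic vesicle-like cells on 6 UMIs, and none of the 4 leading neighbours was apart from the next. Across clusters the levels of the libraries were correlated at r = -0.21, so the patterns by cell type were not alike at this depth.

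Six2, best known for the renewal of nephron progenitors, was the sparsest member, with 19 wild-type and 51 Usb1-null UMIs. In Usb1-null cells it was highest in pharyngeal mesoderm-like cells, at 16.6 CPM (7.60 to 31.5) on 9 UMIs, followed by sclerotome-like B cells at 7.13 CPM on 11 UMIs. The libraries did not share a leading cluster, and across clusters they were correlated at r = 0.08. The wild-type leader was the unnamed cluster 2, at 5.17 CPM on 4 UMIs in 3 cells, which had 0 UMIs in the Usb1-null library. In wild-type cells, pharyngeal mesoderm-like cells had 0 UMIs, which allows a level of up to 12.2 CPM (3 UMIs), a value within the Usb1-null interval, and sclerotome-like B cells had 4 UMIs at 3.97 CPM. Intermediate mesoderm-like cells, which give rise to the kidney, held 0 and 2 UMIs.

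Each of Eya1, Eya2 and Eya4 had a leading cluster that was the same in both libraries. Eya1, the gene mutated in branchio-oto-renal syndrome, was highest in otic vesicle-like cells, at 1520 CPM (1355 to 1698) for wild-type and 1133 (1018 to 1256) for Usb1-null. Pharyngeal mesoderm-like cells followed at 872 and 842 CPM, then sclerotome-like B at 599 and 744 CPM and sclerotome-like A at 524 and 613 CPM. The otic level was above the next in both libraries, whereas pharyngeal mesoderm and sclerotome-like B were apart in wild-type only. An Eya1 UMI was found in 81.1% and 85.0% of otic cells, 57.9% and 54.2% after thinning, whereas 5.41% and 6.04% of thinned erythroid-like cells had one. Over the 25 clusters the level ranged from 59.5 to 1520 CPM (wild-type) and from 68.4 to 1133 CPM (Usb1-null), and the libraries were correlated at r = 0.98. The spinal cord-like cluster was the lowest in one library and the roof plate-like cluster in the other, and 12.5% and 13.1% of Eya1 UMIs lay in the 6 named neural tube clusters, which held 24.1% and 25.8% of all UMIs.

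Eya2 was highest in early neuron-like cells, at 586 CPM (515 to 663) in the wild-type and 337 (282 to 399) in the Usb1-null library. Surface ectoderm-like A was next at 167 and 132 CPM, and then sclerotome-like A at 99.0 and 89.7 CPM, with no overlap between these neighbours in either library. In thinned erythroid-like cells 1.80% and 0.549% had an Eya2 UMI. The early neuron-like cluster held 20.6% of wild-type Eya2 UMIs and 9.29% of those in the Usb1-null library, where it had 155 cells against 317.

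Eya4, which is linked to deafness in humans, was led by the dorsal neural tube. Roof plate and dorsal neural tube-like cells held it at 881 CPM (779 to 991) when wild-type and 1045 (956 to 1141) when Usb1-null, and 38.4% and 44.6% of these cells had a UMI after thinning, against 3.60% and 1.65% of erythroid-like cells. Otic vesicle-like cells followed at 391 and 392 CPM, hindbrain-like cells were at 363 and 355 CPM, and pharyngeal mesoderm-like cells at 371 and 251 CPM. The roof plate level depended on the cluster borders: over both libraries it was 981 CPM, against 522 to 537 CPM with another random seed, with more variable genes or with the members among them. The unnamed cluster 7, which raised 4 of 8 roof plate markers, was at 279 and 280 CPM. The 6 named neural tube clusters held 41.5% and 41.7% of Eya4 UMIs. At the low end, presomitic mesoderm and tail bud-like cells had 2 and 10 UMIs, at 10.1 and 28.6 CPM.

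Eya3 was nearly even. Its level ranged from 116 to 237 CPM over the 25 wild-type clusters and from 127 to 216 CPM over the Usb1-null clusters, and the highest cluster differed between the libraries, presomitic mesoderm and tail bud-like in one and primitive erythroid-like in the other. The leading neighbours overlapped in both. Its correlation between the libraries was accordingly low, at r = 0.25. Erythroid-like cells held Eya3 at 193 and 216 CPM, at or above the whole-library level of 170 and 163 CPM, whereas Eya1, Eya2 and Eya4 were there at 87.9 and 76.1, 15.6 and 9.82, and 49.6 and 17.2 CPM, below their whole-library levels. After thinning, 16.2% and 19.2% of erythroid-like cells had an Eya3 UMI, against 12.7% and 12.0% of all cells. These cells thus give no lower background for Eya3, and the part of free RNA in its detection was not tested.

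A tissue specificity index, which is 0 for an even gene and 1 for a gene found in 1 cluster only, was near 1 for 3 members in both libraries and lowest for Eya3. It was 0.972 and 0.964 for Six3, 0.940 and 0.973 for Six6, 0.938 and 0.903 for Eya2, 0.840 and 0.875 for Eya4, 0.835 and 0.760 for Eya1, 0.532 and 0.544 for Six4 and 0.288 and 0.261 for Eya3. The values of Six2 (0.901 and 0.917) and Six5 (0.492 and 0.606) rest on few UMIs, since 1 UMI in a small cluster moves them.

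The genes closest to each member across clusters were found by the mean of its correlations in each library, over 25 clusters and 13310 genes. For Six3 these were Gm26709 (r = 0.84), Nr2e1 (r = 0.82), a nuclear receptor of the forebrain, and Gm3764 (r = 0.81). For Eya4 they were Samd12 (r = 0.75), Adgrl3 (r = 0.73), an adhesion receptor, and Trim2 (r = 0.71). For Eya1 they were Sema5a (r = 0.71), a semaphorin, Cnr1 (r = 0.70) and Nck2 (r = 0.69), and for Six4 they were Ptk7 (r = 0.72), a Wnt co-receptor, Lrig3 (r = 0.72) and Pacs1 (r = 0.69). The closest genes of Eya2 were Gm26871 (r = 0.64), Cdh12 (r = 0.62) and Psme4 (r = 0.62). Eya3 and Six5 had little pattern to match, and the highest values were those of Slc33a1 (r = 0.66), Eif2b3 (r = 0.65) and Bud23 (r = 0.64) for Eya3 and of Ccdc138 (r = 0.63), Rab36 (r = 0.62) and Cdkn1b (r = 0.61) for Six5. The clusters share libraries and depth, so these values are descriptions.

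The genotypes were first compared by whole-library levels. Of the 9 members, 1 had a Usb1-null level at least 1.5-fold above that of wild-type, as did 9.20% of the 16752 genes with 50 or more UMIs, and 1 was at least 1.5-fold below it, as were 5.90% of genes. With 9 genes, 1 call in each direction is near these shares. The lower gene was Six6, with 85 UMIs at 3.91 CPM in wild-type and 58 UMIs at 1.74 CPM in Usb1-null, a ratio of 0.444 (0.313 to 0.628). The higher gene was Six2, at 0.874 and 1.53 CPM, a ratio of 1.75 (1.01 to 3.13). After thinning the ratio was 0.872, a value that rests on few cells. Only 0.0722% of wild-type and 0.0629% of Usb1-null cells then had a Six2 UMI.

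Among the members that stayed within 1.5-fold, Six3 was at 12.6 and 9.56 CPM, a ratio of 0.758 (0.643 to 0.894), and Eya2 at 55.7 and 42.9 CPM, a ratio of 0.770 (0.713 to 0.832). Eya1 was at 248 and 279 CPM, a ratio of 1.12 (1.09 to 1.16). Six4 and Six5 had ratios of 0.965 (0.862 to 1.08) and 1.17 (0.951 to 1.45). Eya3 and Eya4 had ratios of 0.958 (0.918 to 0.999) and 0.999 (0.954 to 1.05), the latter at 139 CPM in both libraries. The 3 lowest ratios were thus those of Six6, Six3 and Eya2, whose leading clusters were forebrain and early neuron-like cells. In whole-embryo libraries, fewer cells of a type and less RNA of the gene per cell cannot be told apart by such totals. With the wild-type cluster shares applied to both libraries, the ratios were 0.799 for Six3, 0.466 for Six6 and 0.822 for Eya2.

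**Figure D2:**
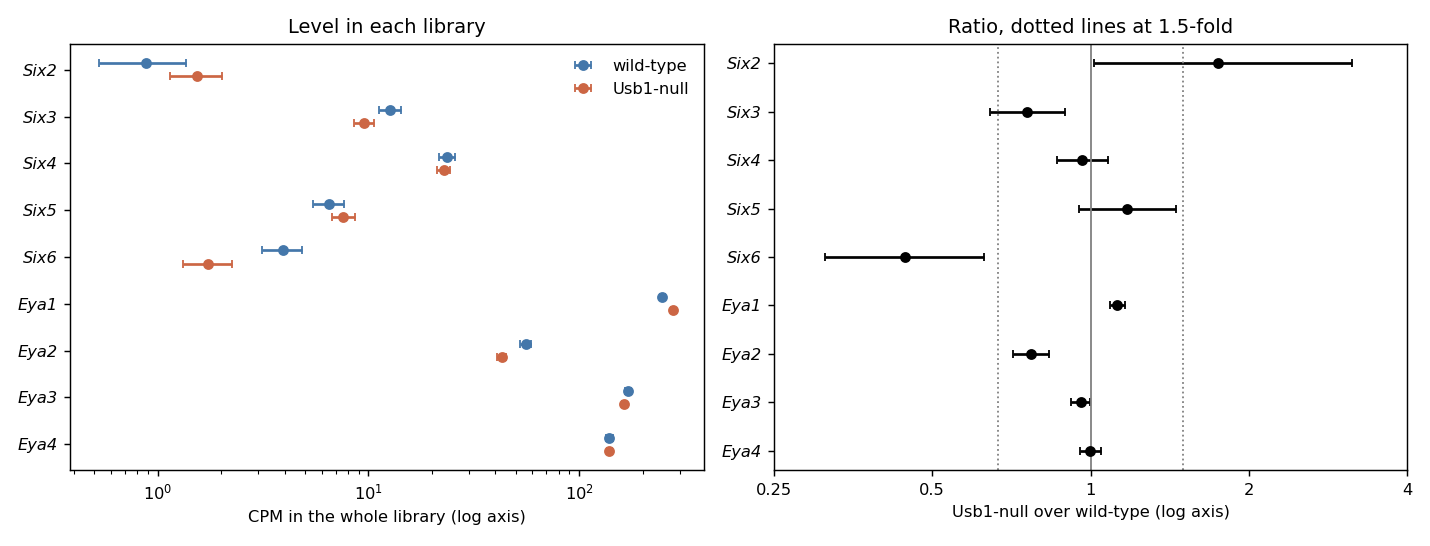
Whole-library level of each gene in CPM on a log axis (left, blue wild-type, orange Usb1-null) and ratio of Usb1-null over wild-type on a log axis (right), with exact 95% counting intervals. Six6 at 0.444 and Six2 at 1.75 lie past the dotted lines at 1.5-fold, and the interval of Six2 nearly reaches 1.

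Within the 25 clusters, members were compared wherever at least 20 UMIs were held, which Six2 reached nowhere. Of these comparisons, 9 (7.20%) had a Usb1-null level at least 1.5-fold above wild-type and 7 (5.60%) one at least 1.5-fold below, against 10.1% and 11.3% of the 243320 gene and cluster comparisons with as many UMIs. After thinning, 9 were higher and 11 lower of 90, without a share of all genes at that depth to set beside them. Without thinning, the interval lay beyond 1 for 7 of 16. None of the Eya3 comparisons passed the fold, with ratios from 0.688 to 1.39 in 25 clusters.

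**Figure D3:**
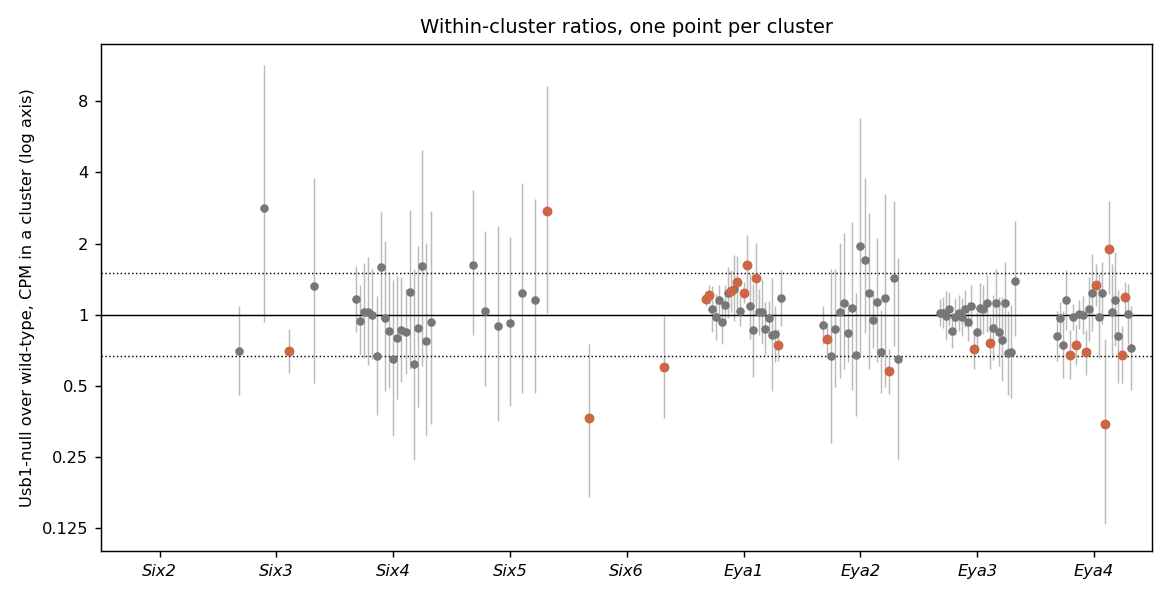
Ratio of Usb1-null over wild-type level within a cluster, on a log axis, for each gene with at least 20 UMIs in that cluster; grey lines are exact 95% counting intervals, orange points have an interval beyond 1 and dotted lines mark 1.5-fold. Six2 had no cluster with enough UMIs, and the Eya3 points all lie between 0.688 and 1.39.

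Six6 was lower in both clusters where it could be compared. In surface ectoderm-like A cells it had 23 wild-type UMIs and 13 Usb1-null UMIs, a ratio of 0.364 (0.169 to 0.749), in a cluster where 9.67% of genes were 1.5-fold lower. In forebrain cells, where 10.7% of genes were, the ratio was 0.601 (0.366 to 0.985). After thinning these were 0.267 and 0.794. Six3 was compared in 4 clusters, with a ratio above 1 in 2 of them and below 1 in 2. Its highest ratio was 2.82, with an interval that held 1. In forebrain cells the Six3 ratio was 0.700 (0.566 to 0.866), just inside the fold, and 0.615 after thinning. In the same cluster 0 of 9 forebrain markers with enough UMIs passed the fold in either direction, and their summed level was 993 and 910 CPM, a ratio of 0.916 (0.852 to 0.986). The eye gene Rax had a ratio of 1.10 there and Lhx2 one of 0.849. Of the markers of midbrain and midbrain-hindbrain boundary, 3 of 7 were higher, Pax5 (1.52), Pax8 (2.13) and Fgf8 (1.52), where 9.23% of genes in the cluster were 1.5-fold higher, and their sum was at a ratio of 1.07 (0.974 to 1.17). The part of such a mix in the lower Six3 and Six6 was not tested. In surface ectoderm-like A cells 3 of 9 surface ectoderm markers were lower and none higher, with a summed ratio of 0.763 (0.728 to 0.800). Otic vesicle markers there were at 254 and 315 CPM, a ratio of 1.24 (1.11 to 1.39), and 2 of 7 were higher, Pax2 (2.12) and Pax8 (1.86), where 8.33% of genes were 1.5-fold higher. The part of these shifts in the Six6, Eya1 and Eya2 values of this cluster was not tested.

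Eya2 in early neuron-like cells was the most precisely measured difference past the fold. It had 249 wild-type and 133 Usb1-null UMIs, a ratio of 0.575 (0.463 to 0.713) and of 0.477 after thinning, in a cluster where 15.4% of genes were 1.5-fold lower. After thinning, 32.3% of wild-type and 17.4% of Usb1-null cells of this cluster had a UMI. In that cluster 4 of 8 early neuron markers were lower too and none higher, with a summed level of 2936 and 1976 CPM, a ratio of 0.673 (0.615 to 0.737). Markers of placodal neuroblasts there were at 663 and 573 CPM, a ratio of 0.863 (0.721 to 1.03), with 1 of 6 lower, Isl1 at 0.651, which is on both lists. The part of these shifts in the Eya2 value was not tested. Eya2 was also lower in surface ectoderm-like A cells, at a ratio of 0.788 (0.674 to 0.922), and at 0.906 (0.754 to 1.09) in sclerotome-like A cells. Its direction was not the same everywhere. Of the 19 clusters compared, 9 had a ratio above 1, up to 1.95, and 10 a ratio below 1. The fold was passed in 2 clusters in each direction, where 10.1% of all gene and cluster comparisons were higher and 11.3% lower.

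Eya1 differed by less than 1.5-fold in all but 1 of 25 clusters, and its direction was not the same everywhere. Otic vesicle-like cells had less of it in the Usb1-null library, with a ratio of 0.745 (0.638 to 0.870) and 0.674 after thinning. It was higher in sclerotome-like A (1.17, 1.09 to 1.26), sclerotome-like B (1.24, 1.12 to 1.37) and surface ectoderm-like A cells (1.22, 1.11 to 1.33). In the last of these the summed otic vesicle markers had a ratio of 1.24, and otic vesicle-like cells are where Eya1 was highest. The single cluster past the fold was splanchnic lateral plate mesoderm-like B, at 80.6 and 130 CPM, a ratio of 1.62 (1.22 to 2.17), where 9.42% of genes were 1.5-fold higher, and the ratio was 1.08 after thinning.

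Eya4 also differed in both directions. It was higher in neural crest and glial precursor-like cells, with 28 and 84 UMIs, a ratio of 1.90 (1.23 to 3.03) and 1.62 after thinning, where 10.4% of genes were 1.5-fold higher, while the markers of that class had a summed ratio of 0.743 (0.692 to 0.797). In its leading cluster, roof plate-like cells, the ratio was 1.19 (1.02 to 1.38). In primitive erythroid-like cells, where 16.5% of genes were 1.5-fold lower, it had a ratio of 0.346 (0.130 to 0.791) on 35 and 7 UMIs, and of 0.563 after thinning. Ratios within 1.5-fold, with intervals under 1, were found in pharyngeal mesoderm-like cells (0.677, 0.515 to 0.893), spinal cord-like cells (0.692, 0.555 to 0.865) and limb bud and body wall-like cells (0.677, 0.534 to 0.860). Six5 passed the fold with an interval beyond 1 in splanchnic lateral plate mesoderm-like A cells, on 5 and 22 UMIs, with a ratio of 2.76 (1.02 to 9.32), which was 1.26 after thinning, in a cluster where 20.4% of genes were past 1.5-fold in either direction. The other 9 comparisons past the fold, the highest ratio of Six3 among them, had intervals that held 1.

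Since sine oculis homeobox proteins act with Eya proteins, detection of both in 1 cell was counted. A UMI of Six2 to Six6 and a UMI of an Eya gene were found together in 534 wild-type cells (3.52%) and in 928 Usb1-null cells (7.13%). After thinning these were 174 (1.40%) and 151 cells (1.19%), so the higher share in the Usb1-null library was seen only at its own depth. Given the clusters and the depth of the cells, independent detection predicted 502 and 920 cells, and the ratios of observed to expected were 1.06 (0.976 to 1.16) and 1.01 (0.945 to 1.08). Summed over the 20 pairs of one homeobox and one Eya gene the ratios were 1.08 and 1.06, and of the 17 and 20 pairs with at least 5 expected cells none had an interval beyond 1. No excess of co-detection beyond that given by the cluster and the depth of a cell was thus detectable for any such pair.

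The share of doubly positive cells differed between clusters. In forebrain cells 11% of wild-type and 21.2% of Usb1-null cells had both, in otic vesicle-like cells 8.20% and 15.8%, in surface ectoderm-like A cells 7.38% and 12.5%, and in sclerotome-like B cells 7.02% and 13.7%. By number, forebrain cells led with 95 and 144 cells, followed by surface ectoderm-like A with 90 and 131 and sclerotome-like A with 53 and 108. An Eya UMI was found in 414 of 865 and 442 of 679 forebrain cells, close to the whole-library shares of 46.9% and 64.0%, whereas Six3 was highest there. In each of the 4 clusters given by share the observed number was within the interval of the expected one, with ratios between 0.987 and 1.14. All 10 wild-type and all 19 Usb1-null otic cells with a UMI of Six2 to Six6 also had an Eya UMI, where 9.68 and 18.7 were expected. An Eya UMI was found in 112 of 122 and 113 of 120 otic cells in all.

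Pairs of Eya genes were co-detected slightly more often than expected. Eya1 with Eya2 had ratios of 1.13 (1.02 to 1.25) and 1.12 (1.03 to 1.21), and Eya2 with Eya4 of 1.24 (1.07 to 1.44) and 1.14 (1.01 to 1.28). Eya1 with Eya4 was at 1.15 (1.06 to 1.24) and 1.05 (0.989 to 1.11). The Eya2 and Eya4 excess was present within surface ectoderm-like A cells, with 51 cells and a ratio of 1.36 (1.01 to 1.79) in wild-type and 81 cells and 1.27 (1.01 to 1.57) in Usb1-null. Elsewhere the ratios of this pair included 0.924 and 1.08 in forebrain and 0.922 and 0.682 in hindbrain-like cells. In cardiomyocyte-like cells the ratio was 2.05 (0.665 to 4.78) on 5 wild-type cells and 1.95 (1.04 to 3.34) on 13 Usb1-null cells. Eya1 with Eya2 was above the expected number in endothelial-like cells, in 9 cells at 3.05 (1.39 to 5.79) and in 14 cells at 1.92 (1.05 to 3.21). These clusters were chosen after their values were seen. Of the pairs with Eya3, all 6 intervals held 1. Cells with 3 or 4 different Eya genes numbered 343 in wild-type and 734 in Usb1-null. No pair of Eya genes shared a run of 31 bases in any annotated transcript, and pairs of Six2 to Six6 shared at most 2 such runs. The largest number was 3, for Six4 with Eya1, the most correlated pair of one homeobox and one Eya gene across clusters.

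**Figure D4:**
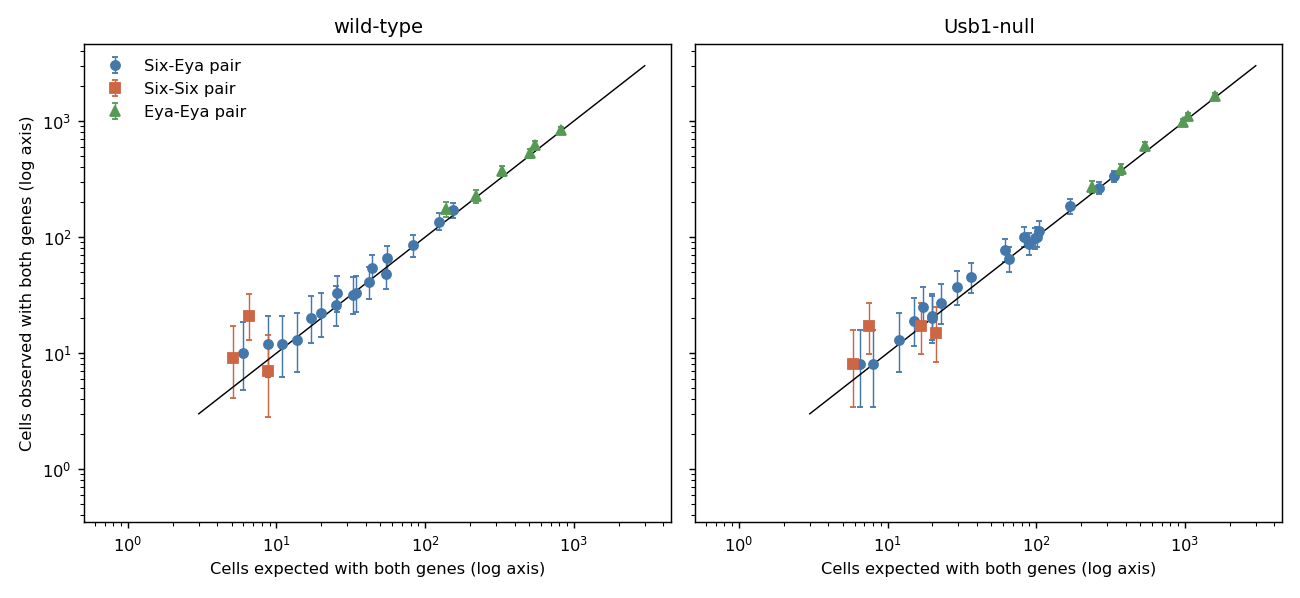
Number of cells in which both genes of a pair were detected (vertical, log axis, bars are exact 95% counting intervals) against the number expected from cluster and depth (horizontal, log axis), with the line of equality, wild-type left and Usb1-null right. Pairs of one homeobox and one Eya gene (blue circles) follow the line, whereas the Six3 and Six6 pair stands above it with 21 against 6.55 and 17 against 7.52 cells.

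The wider network was read from 5 lists of 55 different genes, of which 38 had at least 50 UMIs. Of these, 3 were at least 1.5-fold higher and 2 lower, shares no larger than the 9.20% and 5.90% of all genes. Among partners in retinal determination, 1 of 13 was higher in the Usb1-null library and none lower. This was Pax8, a factor of the ear, thyroid and kidney, at 20.3 and 34.9 CPM, a ratio of 1.72 (1.54 to 1.92). Dach1, the co-repressor of the network, was at 1168 and 1153 CPM (ratio 0.987), and Pax6, the eye factor, at 93.1 and 81.1 CPM (ratio 0.871). Among 8 counted eye field and forebrain genes, Sox2, a factor of neural progenitors, was lower, at 76.5 and 49.6 CPM (0.649, 0.606 to 0.695), and none was higher. Of 9 counted preplacodal and otic genes, the neurogenic factor Neurod1 was lower, at 2.48 and 1.05 CPM (0.422, 0.268 to 0.658). Of 7 counted kidney and pharyngeal genes, Sall1, a zinc finger factor of the kidney, was higher, at 42.8 and 71.4 CPM (1.67, 1.55 to 1.80), and of 5 counted myogenic genes, Tcf21, a factor of head muscle precursors, was higher, at 2.76 and 4.19 CPM (1.52, 1.11 to 2.09). The median log2 ratios were -0.02, -0.16, 0.03, -0.11 and -0.09 for these lists in turn, -0.05 for the 9 members and -0.00 for all genes. Muscle factors such as Myod1 and Myog, later targets of this network in the somite, had 1 and 6 UMIs over both libraries and could not be compared.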

How the data were processed

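Single-cell RNA sequencing (10x Genomics 3′ kit, v3.1) was done by the authors on dissociated whole embryos, 1 library per genotype. The deposited files hold UMI counts per gene and barcode, without normalisation. The file headers name Cell Ranger 6.1.2, whereas the submitters' processing notes give Cell Ranger 2.1.1 and the build mm10, the sources used here give neither the annotation nor whether introns were counted, and the labels call the molecule nuclear RNA.

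Cells with 200 to 6000 detected genes and under 30% mitochondrial UMIs were kept, 15161 wild-type and 13018 Usb1-null, with 21732106 and 33383886 UMIs. Counts were scaled to 10000 per cell. The 2000 most variable genes per library were used without genes of both families, mitochondrial, ribosomal, Xist, Tsix and Y-linked genes, with 30 principal components, a NumPy version of Harmony, 15 neighbours and Leiden clustering (Scanpy 1.11.5, leidenalg 0.10.2) at resolution 1.2, the value nearest to 30 clusters. Names required at least 3 markers and 50% of a list raised 2-fold with at least 10 UMIs, and as many markers among the 10 leading genes as any other list, a rule set after the clusters had been seen. Doublets were called with Scrublet in Scanpy (933 and 569 cells) and removed only in an alternative.

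With 1 library per genotype no test was made, and a difference was called at 1.5-fold where a gene had 50 or more UMIs in all, or 20 or more in a cluster of at least 100 cells per library. Intervals of counts are exact Poisson, of shares Clopper-Pearson and of ratios conditional binomial, all at 95%. Log2 ratios add 1 CPM and correlations across clusters 5 CPM. Expected co-detection multiplies the detections within each cluster and 5 depth classes. The ratio and co-detection code was tested on simulated data. Named genes were the 9 members, the 3 genes most like each member with at least 200 UMIs, list genes past 1.5-fold with at least 50 UMIs, and Usb1; the other genes given with values (sex-linked genes, markers, antisense partners, Dach1, Pax6, Myod1 and Myog) were chosen after their values were seen. The members and lists were chosen with earlier results of these data known. Coordinates are of GRCm38 (GENCODE M21), and coding sequences were aligned with Biopython 1.88.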

Additional observations from a re-analysis of the deposited data

Results flagged for a closer look

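Eya4 was flagged because its level differed between the genotypes in opposite directions in different cell classes, each past 1.5-fold with a counting interval beyond 1. The ratio of Usb1-null over wild-type was 1.90 in neural crest and glial precursor-like cells (52.0 and 99.0 CPM) and 0.346 in primitive erythroid-like cells (49.6 and 17.2 CPM). The difference between these ratios was not tested, since each genotype had 1 library. After thinning they were 1.62 and 0.563. The summed markers of the neural crest class had a ratio of 0.743 (0.692 to 0.797) in the same cluster, and erythroid-like cells served as the guide to free RNA, so the Eya4 value there may not be expression in that class. The erythroid value rests on 35 and 7 UMIs in 600 and 192 cells, and Eya4 there lies below its whole-library level in both libraries.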

How the results depend on the processing

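Of 230 values recomputed under the alternatives, 205 moved by less than counting error (or by less than 1.5 times for a number of comparisons or genes). A further 24 moved by more, and 1 difference called at 1.5-fold reversed. A change of sign was recorded only for called differences. The whole-library log2 ratio of Eya4, which was not called, went from -0.00136 to 0.0177 after thinning. The whole-library log2 ratio of Six2, 0.43, became -0.0904, on few UMIs, when each cell was thinned to 800 UMIs. That of Six6, -0.84, was -0.40 with a pseudocount of 5 CPM, and that of Eya1, 0.17, was 0.0827 in cells with at least 1000 genes. At the resolution nearest to 19 clusters, 5 of the 9 members kept the class of their leading cluster, and Six3 and Six6 were then highest, at 57.9 and 10.3 CPM, in a cluster named for midbrain. Within clusters, the 9 higher comparisons became 5 with a pseudocount of 5 CPM and 4 of 83 at that coarser resolution, and the 7 lower ones became 11 of 90 after thinning (with 9 of 90 higher) and 4 with a pseudocount of 5 CPM. Without depth classes, co-detection of Six2 to Six6 with Eya genes was 1.19 (wild-type) and 1.08 (Usb1-null) times the expected number. Of the pathway genes, 3 higher and 2 lower became 9 and 9 of 55 without a minimum of UMIs, 0 and 1 at a fold of 2, and 3 and 1 of 31 with at least 200 UMIs. The causes of these changes were not tested. Scaling by TMM or by the median of gene ratios moved levels by factors of 1.01 and 0.998. No paired analysis was possible because each genotype had 1 library, and for the same reason no replicate could be left out. Depth limits Six2, Six5 and Six6, with 70, 395 and 143 UMIs in all.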
